A study of Homo sapiens with 4 samples.

Results

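The genes described here are the 4 members of the TSC22 domain family measured in HEK293 cells (TSC22D1, TSC22D2, TSC22D3 and TSC22D4) together with 6 genes that are known in other settings as glucocorticoid receptor or FOXO target genes, or as the receptor itself: FKBP5, PER1, KLF9, TXNIP, NR3C1 and SGK1. They are 10 of 20457 listed features and were chosen by name, with the low level of TSC22D3 in the knockdown libraries as the reason for the choice. HEK293 is a human embryonic kidney cell line. Its cells, of wild-type genotype per the labels, received 10 nM of an siRNA for 72 h: either a control siRNA (siControl, 2 libraries) or an siRNA against CNOT4 (siCNOT4, 2 libraries), CNOT4 being an E3 ligase of the RING type linked to the CCR4-NOT deadenylase, which shortens poly(A) tails. The study asked whether CNOT4 takes part in the effect of codon usage on gene expression. No label names an added glucocorticoid, and the medium held fetal bovine serum. Nothing in the labels says whether 2 libraries of a group came from separate cultures, so p-values measure the spread between these libraries, which may be technical.

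TSC22 domain proteins carry a conserved leucine zipper with a TSC box before it. Through it they pair with one another, and several bind NRBP1 and WNK kinases. TSC22D3, also called glucocorticoid-induced leucine zipper, is switched on by the ligand-bound receptor and is also a FOXO target. The receptor, encoded by NR3C1, is held ready for hormone by HSP90 and its cochaperones, then enters the nucleus and binds palindromic sites in DNA, and FKBP5, PER1, KLF9 and SGK1 are among its widely induced targets. FOXO factors are kept out of the nucleus by AKT and SGK kinases when insulin-type signals are strong. TXNIP, which binds thioredoxin, limits glucose uptake and is induced by the glucose-sensing factor MondoA with MLX through E-box pairs called ChoREs.

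The promoters that hold a FOXO-type letter string are shown first, since it is the 1 string searched that the TSC22D3 window has. Among 26 RefSeq promoter windows (build GRCh38.p14, 250 bases before to 50 after a start site) of 9 of the 10 genes, GTAAACA, searched on both strands, was found in 1 window each of TSC22D3, TXNIP and NR3C1. It was found in 3.42% of 35116 such windows in all. The sequences below run 5′ to 3′ on the gene's strand. Capitals mark GTAAACA or its reverse complement, at 147 bases before the start site in TSC22D3 (chrX:107717013-107717312, minus strand), 124 in TXNIP (chr1:145996530-145996829, minus strand) and 59 in NR3C1 (chr5:143403234-143403533, minus strand). In TXNIP the capitals also mark a ChoRE-type pair, 2 copies of CACGNG 5 bases apart, 88 bases before the start site, a string that occurred in 20 windows (0.057%).
TSC22D3: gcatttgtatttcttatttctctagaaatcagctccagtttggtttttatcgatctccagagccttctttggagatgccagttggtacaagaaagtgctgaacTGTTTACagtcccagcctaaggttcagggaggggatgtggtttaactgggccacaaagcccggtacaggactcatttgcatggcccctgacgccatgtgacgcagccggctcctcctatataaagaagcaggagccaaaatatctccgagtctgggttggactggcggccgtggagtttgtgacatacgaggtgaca
TXNIP: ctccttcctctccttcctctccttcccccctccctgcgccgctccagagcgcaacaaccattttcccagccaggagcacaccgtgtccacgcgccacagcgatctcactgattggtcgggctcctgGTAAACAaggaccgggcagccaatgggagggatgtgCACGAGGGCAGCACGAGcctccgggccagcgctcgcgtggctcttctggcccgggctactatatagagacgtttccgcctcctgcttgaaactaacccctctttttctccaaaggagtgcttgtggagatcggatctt
NR3C1: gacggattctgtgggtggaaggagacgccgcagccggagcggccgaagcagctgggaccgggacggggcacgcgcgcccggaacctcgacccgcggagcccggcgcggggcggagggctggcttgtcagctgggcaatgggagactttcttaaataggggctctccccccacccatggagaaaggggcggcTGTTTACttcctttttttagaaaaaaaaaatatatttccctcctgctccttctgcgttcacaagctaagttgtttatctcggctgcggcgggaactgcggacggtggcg
The receptor's 6-letter core AGAACA occurred in windows of FKBP5, SGK1 and TSC22D1 and in 14.8% of all windows, and the E-box CACGTG, which the ChoRE search also matches within a pair, in windows of FKBP5, PER1 and TSC22D1 and in 7.26% of all. No member window held the full receptor site (AGAACA, any 3 bases, TGTTCT; 1 window in all, 0.00285%) or the CRE TGACGTCA (1.85% of all). These matches describe letters only.

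The deposited values are TPM (transcript abundance scaled to a fixed library sum of 1000000) per gene, and the reads behind them could be recovered from their steps. They came to 26980232 and 25192097 in siControl and 28325946 and 28060521 in siCNOT4. Library siControl 2 stood apart from the others, and long transcripts were low in it. Over the 4013 tested features with implied lengths under 2000 bases its median ratio to siControl 1 was 0.997, and over the 2065 longer than 6000 bases it was 0.515, whereas the 2 siCNOT4 libraries had medians of 1.04 and 1.00 in those groups. Of the 14208 features with a mean of at least 1 TPM, limma called 12.6% changed at an adjusted p under 0.05 (11.3% higher and 1.3% lower in siCNOT4), and the median log2 fold change of all was 0.50, where a fold change is the difference of group means of log2(TPM + 1). Both siCNOT4 libraries lay above both siControl libraries in 66.4% of them, and on one side or the other in 77.1%. Trimmed-mean scaling (TMM) brought the median to 0.01 and the higher share of calls from 89.7% to 50.7%, so fold changes whose sign turns under it are also given under it. Under TMM 4.45% of features were called higher and 4.33% lower, and limma's voom on recovered reads called 14.5%. Leaving out siControl 1 brought the share called to 79.6% and leaving out siControl 2 to 57.5%. With 1 library left out, p-values rest on the spread between the 2 libraries of the other group alone. An unadjusted p under 0.05 was reached by 42.0% of features, and by 36.3% under TMM. CNOT4 itself was at 6.43 and 4.73 TPM in siControl and 3.38 and 3.81 in siCNOT4. The groups did not overlap, but the difference on the log2 scale, -0.51 ± 0.26 (SE), missed the threshold (limma adjusted p = 0.184). Relative to the median of all features the difference for CNOT4 was -1.01, which was not tested.

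TSC22D3 was at 408 and 361 TPM in siControl and at 103 and 80.0 TPM in siCNOT4. Both knockdown libraries lay far below both controls, and the groups did not overlap. The means were 384 ± 32.9 and 91.7 ± 16.5 TPM (SD, n = 2), a level 4.19-fold lower in siCNOT4 and a log2 fold change of -2.07 ± 0.18 (SE). TSC22D3 was selected on this difference, so no test is given, and 3 tested features had a lower log2 fold change. The value rested on 14830, 14915, 3579 and 2739 recovered reads, for an implied length of 2807 bases. Relative to the median of all features the change was -2.57, and under TMM it was -2.61. In siControl TSC22D3 ranked 301 and 354 among all features by TPM, and in siCNOT4 1847 and 2468.

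**Figure D1:**
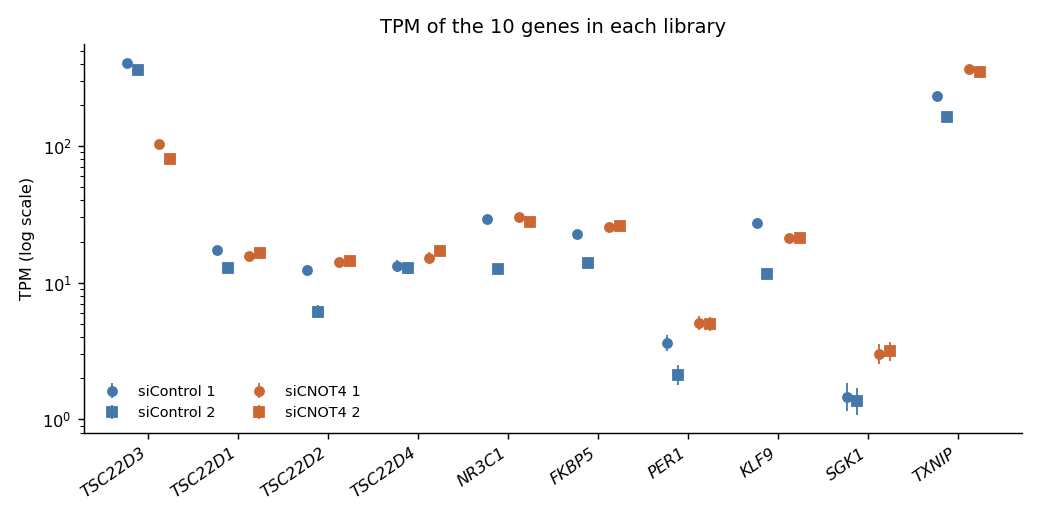
TPM of the 10 genes on a log axis in each library, with 1 point per library, blue for siControl and orange for siCNOT4, and bars for the exact Poisson 95% interval of the recovered reads (counting error only). TSC22D3 sits between 80.0 and 103 TPM in siCNOT4 and between 361 and 408 TPM in siControl, while the siCNOT4 points of the other 9 genes lie above both controls or overlap with them.

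The other 3 family members did not pass the test. TSC22D1, named for its induction by TGF-beta and the largest of the 4 by implied length (6780 bases), was at 17.5 and 12.8 TPM in siControl and 15.7 and 16.4 in siCNOT4. Its groups overlapped, and its log2 fold change was 0.09 ± 0.28 (SE, limma adjusted p = 0.803) and -0.42 under TMM. TSC22D2 was at 12.4 and 6.14 TPM in siControl and 14.1 and 14.3 in siCNOT4. Both knockdown libraries were above both controls, siControl 2 lying lowest, and the log2 fold change was 0.64 ± 0.37 (SE, limma adjusted p = 0.218). It was 0.14 under TMM, 0.18 without siControl 2 and 1.09 without siControl 1. TSC22D4 was at 13.2 and 12.7 TPM in siControl and 15.2 and 17.1 in siCNOT4. Its groups did not overlap, and its log2 fold change, 0.29 ± 0.26 (SE, limma adjusted p = 0.391), was -0.22 under TMM. The family's makeup therefore differed between groups within each library: TSC22D3 made up 90.4% and 91.9% of the 4 genes' summed TPM in siControl and 69.7% and 62.6% in siCNOT4. The sum was 451 and 393 TPM against 148 and 128 TPM. The other 3 genes together stood at 43.1 and 31.7 TPM in siControl and 45.0 and 47.8 in siCNOT4, so TSC22D3 accounted for the lower sum. These shares use the TSC22D3 value that chose the genes and are a description.

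**Figure D2:**
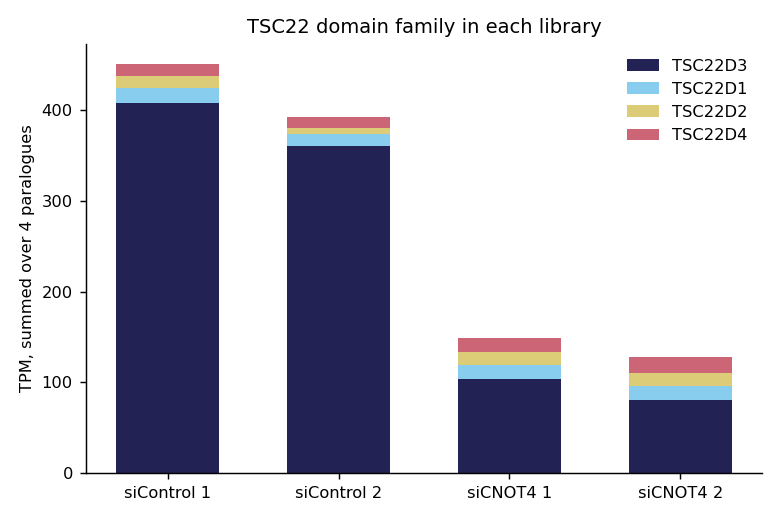
Stacked TPM of the 4 TSC22 family members in each library. The bars reach 451 and 393 TPM in siControl and 148 and 128 in siCNOT4, with TSC22D3 as the part that differs.

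The receptor gene NR3C1 was at 29.3 and 12.6 TPM in siControl and 30.1 and 27.9 in siCNOT4. Only siControl 2 was low, and siControl 1 lay between the 2 knockdown libraries. The log2 fold change was 0.56 ± 0.40 (SE, limma adjusted p = 0.298) with both controls, 1.14 without siControl 1 and -0.01 without siControl 2. FKBP5, a cochaperone that lowers the receptor's affinity for hormone, was at 22.8 and 14.0 TPM in siControl and 25.5 and 25.9 in siCNOT4, with no overlap. Its log2 fold change was 0.50 ± 0.30 (SE, limma adjusted p = 0.233), close to the median of all features. The value was -0.02 under TMM, 0.16 without siControl 2 and 0.83 without siControl 1. KLF9, a Kruppel-type repressor of transcription, was at 27.3 and 11.6 TPM in siControl and 21.3 and 21.3 in siCNOT4. Both knockdown libraries lay between the controls, and the log2 fold change, 0.24 ± 0.41 (SE, limma adjusted p = 0.662), was -0.34 without siControl 2 and 0.82 without siControl 1. PER1, a clock repressor, was at 3.61 and 2.11 TPM in siControl and 5.04 and 5.02 in siCNOT4. The siCNOT4 values were above both controls, and the log2 fold change was 0.67 ± 0.28 (SE, limma adjusted p = 0.121). It was 0.25 under TMM, 0.04 under quantile normalization, 0.39 without siControl 2 and 0.96 without siControl 1. SGK1, a kinase that phosphorylates FOXO3, was at 1.46 and 1.35 TPM in siControl and 3.02 and 3.16 in siCNOT4, 2.20-fold higher in siCNOT4. Neither knockdown library overlapped with a control. It rested on 75 and 79 reads in siControl and 148 and 153 in siCNOT4, the fewest of the 10 genes, and the Poisson 95% intervals, which cover counting error only, reached up to 1.83 TPM in siControl and down to 2.56 TPM in siCNOT4. The log2 fold change was 0.77 ± 0.20 (SE) and did not pass the threshold (limma adjusted p = 0.0526). It was 0.40 under TMM (adjusted p = 0.154), 0.20 under centring and 0.11 under quantile normalization (0.662). With a pseudocount of 0.1 in place of 1 it was 1.08 (limma adjusted p = 0.0762), and with voom 0.851 (0.0521). The value was 0.798 without siControl 1 and 0.735 without siControl 2.

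TXNIP was the 1 gene of the other 9 that rose by the test, from 231 and 164 TPM in siControl to 368 and 350 TPM in siCNOT4. All knockdown values lay above both controls. The means were 197 ± 47.6 and 359 ± 12.5 TPM (SD, n = 2), 1.82-fold higher, and the log2 fold change was 0.88 ± 0.19 (SE, limma adjusted p = 0.0436). TXNIP was called in 4 of 13 alternative fits: quantile normalization, the replicate block and the fits without siControl 1 and without siControl 2. Each fit without a siControl library called most of all tested features. The call was lost under TMM (0.33, adjusted p = 0.211). Without siCNOT4 1, siCNOT4 2, siControl 1 and siControl 2 in turn the log2 fold change was 0.85, 0.92, 1.13 and 0.63. Within a library TSC22D3 stood at 1.77 and 2.21 times TXNIP in siControl and at 0.281 and 0.229 times TXNIP in siCNOT4. The ratio of TXNIP to FKBP5 was 10.1 and 11.7 in siControl against 14.4 and 13.5 in siCNOT4, whereas that of TXNIP to NR3C1 was 7.89 and 13.0 against 12.2 and 12.5 and so overlapped. FKBP5 and NR3C1 have implied lengths of 10628 and 9455 bases against 2927 for TXNIP, and long transcripts were low in siControl 2. The part of length in these ratios was not tested.

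**Figure D3:**
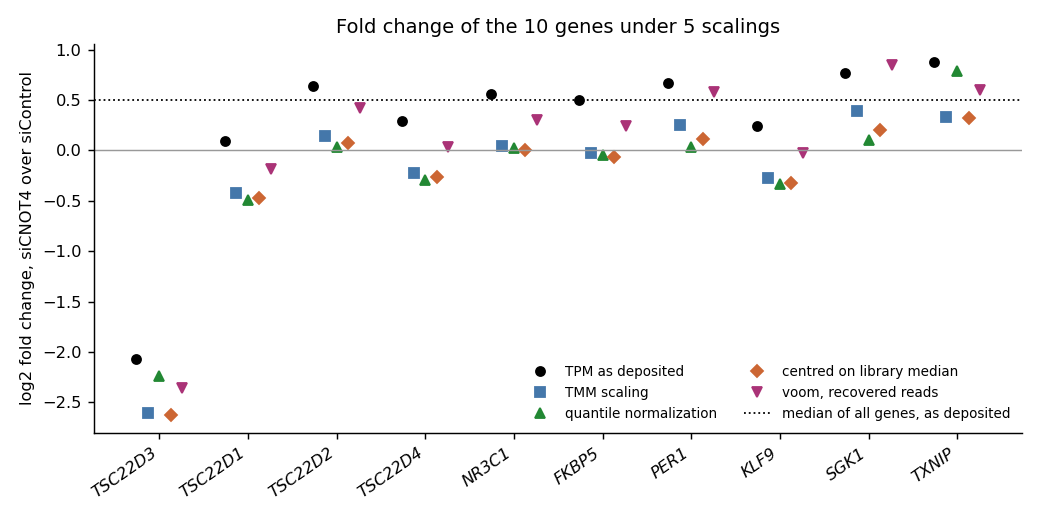
Log2 fold change (siCNOT4 over siControl) of each of the 10 genes as deposited and under the scaling alternatives. TSC22D3 stays between -2.63 and -2.07, and TSC22D1, TSC22D4, FKBP5 and KLF9 lie on both sides of 0.

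Of the 9 genes other than TSC22D3, 1 was called, a share of 11.1% against 12.6% of all features. In 6 of the 9 both siCNOT4 libraries lay above both controls, and 66.4% of all features did so. Their median log2 fold change was 0.56, against 0.50 over all features. Leaving out siControl 1 left all 9 called, against 79.6% of all features, and leaving out siControl 2 left 3 called (33.3% against 57.5%). The ratio of siControl 2 to siControl 1 ran from 0.425 in KLF9 and 0.430 in NR3C1 through 0.496 in TSC22D2 to 0.928 in SGK1 and 0.963 in TSC22D4. It was 0.886 for TSC22D3. The part of that library in the results of the other 9 genes was not tested.

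**Figure D4:**
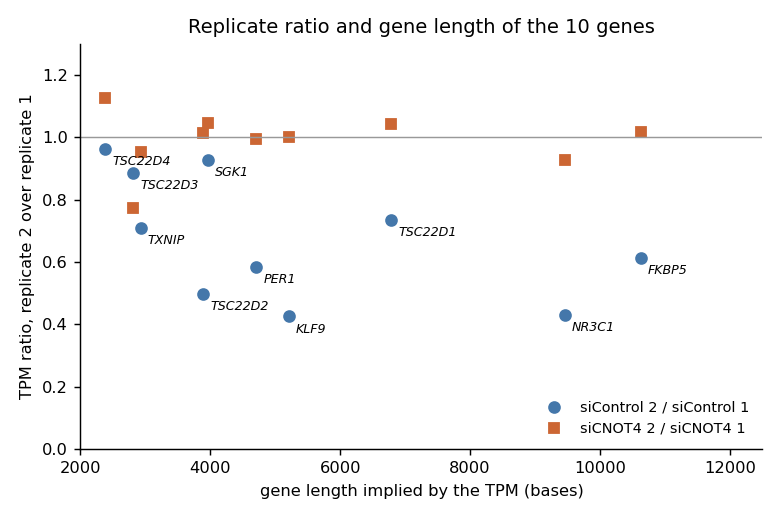
Ratio of siControl 2 to siControl 1 and of siCNOT4 2 to siCNOT4 1 for each of the 10 genes against implied gene length in bases. The siControl ratios reach down to 0.425, and the siControl libraries lie closest in TSC22D4 at 0.963; the siCNOT4 ratios lie near 1 except TSC22D3 at 0.775.

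A list of 30 other glucocorticoid receptor target genes had 24 tested, of which 2 rose and 3 fell, with a median log2 fold change of 0.39. The share called was 20.8%, against 12.6% of all features (11.3% higher, 1.3% lower). This list and those below were chosen with earlier results of these data known, so their shares are descriptions. Under TMM 2 of the 24 were called higher and 6 lower, where 4.45% and 4.33% of all features were. Voom called 8 of the 24, where 14.5% of all features were called. Beside MT1X and DDIT4, TMM called lower ANXA1 (-1.22, limma adjusted p = 0.0298), CEBPB (-0.99, 0.0447), NFKBIA (-0.89, 0.036) and CITED2 (-0.84, 0.0480). ANXA1, CEBPB, NFKBIA and CITED2 were not called as deposited and were named after their values were seen. The 3 that fell as deposited were MT1X, DDIT4 and MT2A. MT1X, a metal-binding metallothionein, was at 91.9 and 134 TPM in siControl and 32.5 and 30.9 in siCNOT4 (log2 fold change -1.78, limma adjusted p = 0.0228). DDIT4, which restrains the growth kinase mTORC1, was at 385 and 331 TPM against 132 and 109 (-1.57, adjusted p = 0.0227). MT2A, another metallothionein, was at 59.9 and 112 TPM against 30.0 and 28.4 (-1.46, adjusted p = 0.0428). Metallothionein genes are near copies of one another, so reads may be split between them. Those that rose were RHOB, a small GTPase, from 57.7 and 52.3 to 166 and 161 TPM (1.56, adjusted p = 0.0227), and BIRC3, an inhibitor of apoptosis, from 0.971 and 0.521 to 4.20 and 3.71 TPM (1.52, adjusted p = 0.0244). GLUL, the glutamine synthetase gene, was at 256 and 150 TPM against 189 and 195 (-0.03, -0.58 under TMM, adjusted p = 0.936). MT1X and DDIT4 were called in all 13 alternatives and RHOB in 12 of 13. BIRC3 was called in 11 of the 12 that tested it. MT2A was called in 6 of 13, and its lost calls include TMM (adjusted p = 0.0526) and centring (0.0619). The log2 fold change of MT2A was -1.42 without siCNOT4 2, -1.91 without siControl 1 and -1.01 without siControl 2. MT2A and MT1X have implied lengths of 419 and 404 bases, and siControl 2 stood at 1.87 and 1.46 times siControl 1. The part of length in these changes was not tested. With siControl 2 left out 15 of the 24 were called (62.5%, against 57.5% of all features), and with siControl 1 left out 20 (83.3% against 79.6%).

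**Figure D5:**
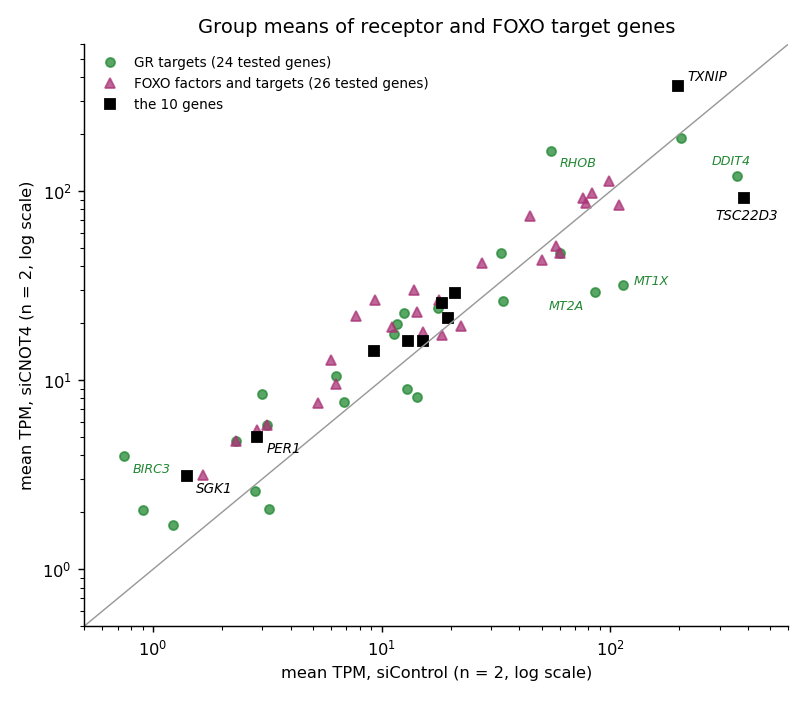
Mean TPM in siControl against siCNOT4 on log axes for receptor targets, FOXO factors and targets and the 10 genes, with the line of equality. TSC22D3, DDIT4, MT1X and MT2A lie below the line; RHOB, BIRC3 and TXNIP lie above it.

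In the receptor machinery list (20 of 21 tested, median 0.54) 3 genes rose and none fell, a share called of 15% against 12.6% of all features. None was called under TMM, where 5 had an unadjusted p under 0.05 (36.3% of all features did). Limma's voom on recovered reads called 1 (14.5% of all features). The 3 that rose were HSP90AA1, the stress-inducible HSP90, at 1361 and 1288 TPM against 2282 and 2175 (log2 fold change 0.75, limma adjusted p = 0.0256), HSPA8, a constitutive HSP70, at 1320 and 1085 against 2211 and 2078 (0.84, adjusted p = 0.0284), and HSPA4, an HSP110-type cochaperone, at 198 and 174 against 347 and 349 (0.90, adjusted p = 0.0259). HSP90AA1, HSPA8 and HSPA4 were called in 6, 5 and 8 of 13 alternatives. In the same order, their log2 fold changes were 0.72, 0.80 and 0.91 without siCNOT4 1 and 0.79, 0.88 and 0.90 without siCNOT4 2. Under TMM they were 0.20, 0.29 and 0.36, and under centring 0.19, 0.28 and 0.34. Relative to the median of all features as deposited they were 0.25, 0.34 and 0.40. Both HSP90AA1 and HSPA8 have processed copies in the genome that may share reads. Among 26 tested FOXO factors and targets (of 29), limma called none, where 12.6% of all features were called. Of the 26, 10 had an unadjusted p under 0.05 (38.5%, against 42.0% of all). Voom called 1, where 14.5% of all features were called, and TMM called 2 lower, where 4.33% of all were. Those called under TMM were CITED2 (-0.84, adjusted p = 0.0480), which is also in the receptor target list, and SESN1 (-0.70, adjusted p = 0.0484), named after their values were seen. The median was 0.58. SOD2, mitochondrial superoxide dismutase, was at 115 and 82.6 TPM against 115 and 112, and GADD45A, a stress-induced growth arrest gene, at 109 and 109 against 85.7 and 83.3 (0.22 and -0.37, adjusted p = 0.428 and 0.126, and -0.33 and -0.91 under TMM). None of the 10 tested TXNIP-family and MondoA genes was called by limma on the TPM as deposited, under TMM or with voom. As deposited, 1 had an unadjusted p under 0.05 (10.0%, against 42.0% of all features). TXN, the thioredoxin that TXNIP binds, was at 455 and 627 TPM against 328 and 319 (-0.72, adjusted p = 0.0511), and TXN2, the mitochondrial thioredoxin, at 176 and 192 against 179 and 182 (-0.03, -0.57 under TMM, adjusted p = 0.90). The partner list holds NRBP and WNK kinases, STK39, OXSR1, SLC12A2 and THG1L, the last without an established link. None of its 9 tested genes was called by limma on the TPM as deposited or with voom. As deposited, 2 had an unadjusted p under 0.05 (22.2%, against 42.0% of all features). Under TMM 1 was called lower, where 4.33% of all features were: THG1L (-0.72, adjusted p = 0.0475), named after its values were seen. NRBP1, a pseudokinase, was at 159 and 156 TPM against 220 and 220 (0.48, adjusted p = 0.0633, -0.07 under TMM), and STK39, a kinase activated by WNK kinases, at 63.9 and 46.4 against 67.6 and 66.9 (0.30, adjusted p = 0.306, -0.24 under TMM).

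The gene families of the other members had called shares of 10.5% (clock), 7.69% (KLF), 20.0% (SGK and AKT) and 7.69% (FKBP), against 12.6% of all features (11.3% higher and 1.3% lower). Under TMM 1 clock gene was called higher and 1 lower, where 4.45% and 4.33% of all features were. The lower one was BHLHE40 (-0.92, limma adjusted p = 0.0352), named after its values were seen. Also called lower under TMM were 1 KLF gene, 2 SGK and AKT pathway genes and 1 FKBP gene. Voom called 4 clock genes, 1 KLF gene, 3 SGK and AKT pathway genes and 1 FKBP gene, where 14.5% of all features were called. Of 19 tested clock genes 2 rose: TEF, a PAR-type transcription factor, from 3.77 and 2.89 to 10.9 and 10.9 TPM (log2 fold change 1.47, limma adjusted p = 0.0325), and ARNTL2, a partner of CLOCK, from 14.0 and 9.22 to 28.7 and 26.2 TPM (1.20, adjusted p = 0.0485). The abundant clock kinases CSNK1D and CSNK1E were at 119 and 83.4 against 138 and 153 TPM and at 147 and 101 against 103 and 116 TPM (0.54 and -0.16, adjusted p = 0.107 and 0.591, and -0.0026 and -0.70 under TMM). Of 13 KLF genes KLF2 rose, from 1.31 and 1.65 to 4.37 and 4.63 TPM (1.15, adjusted p = 0.0339). KLF10, a TGF-beta-induced repressor, was at 64.9 and 30.4 TPM against 60.6 and 61.1, and KLF11 at 30.7 and 17.9 against 18.9 and 18.9 (0.44 and -0.30, adjusted p = 0.351 and 0.472). Under TMM they were at -0.09 and -0.82, and KLF11 was called lower (adjusted p = 0.0492). Of 10 SGK and AKT pathway genes 2 fell: MLST8, a subunit of both mTOR complexes, from 131 and 121 to 47.5 and 47.6 TPM (-1.38, adjusted p = 0.0227), and NDRG1, an SGK1 substrate, from 139 and 117 to 77.1 and 68.2 TPM (-0.81, adjusted p = 0.0437). AKT2, an insulin-regulated kinase, was at 122 and 75.7 TPM against 127 and 137 (0.45, adjusted p = 0.202, -0.09 under TMM). Of 13 FKBP genes FKBP10, a collagen chaperone of the endoplasmic reticulum, fell from 235 and 230 to 148 and 154 TPM (-0.62, adjusted p = 0.0439). FKBP3 was at 341 and 456 TPM against 383 and 391, and FKBP8, a mitochondrial outer membrane protein, at 417 and 534 against 365 and 389 (-0.03 and -0.32, adjusted p = 0.910 and 0.171). ARNTL2 and KLF2 lost their calls under TMM (adjusted p = 0.0564 and 0.0793). TEF, ARNTL2, NDRG1 and FKBP10 were called in 8, 5, 7 and 6 of 13 alternatives, KLF2 in 5 of 12 and MLST8 in all 13. Without siCNOT4 1 the log2 fold changes of TEF, ARNTL2, KLF2, NDRG1 and FKBP10 were 1.47, 1.14, 1.19, -0.89 and -0.59. Without siCNOT4 2 they were 1.47, 1.26, 1.12, -0.72 and -0.65. Without siControl 1 they were 1.62, 1.48, 1.05, -0.68 and -0.61, and without siControl 2 they were 1.32, 0.92, 1.25, -0.93 and -0.63. Across the 137 list genes tested, 8 rose and 6 fell (10.2% called, against 12.6% of all features, 11.3% higher and 1.3% lower). Under TMM, where 4.45% and 4.33% of all features were called higher and lower, 3 of the list genes were called higher and 13 lower. Without siControl 2, 71 of them were called (51.8% against 57.5%), and without siControl 1, 107 (78.1% against 79.6%).

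The 5 genes whose library profiles were most like that of TSC22D3, by Euclidean distance of centred log2(TPM + 1) over 4 libraries among 9560 features with a mean of at least 10 TPM, were PYCR1 (distance 0.328), DDIT4 (0.503), STC2 (0.546), ATF4 (0.589) and MT1X (0.617). PYCR1, an enzyme of proline synthesis, was at 94.6 and 70.5 TPM in siControl and 22.7 and 21.0 in siCNOT4. STC2, a secreted stanniocalcin, was at 120 and 85.5 TPM against 35.5 and 31.0. ATF4, a transcription factor of the integrated stress response, was at 1005 and 1151 TPM against 358 and 352. All 5 are lower in both siCNOT4 libraries, as TSC22D3 was, and they were chosen for that likeness, so this is a description with no test. Of the 7 other members with a mean of at least 10 TPM the closest was TSC22D1, at a distance of 2.19.

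As for the cells, LIN28B and NEFL of 6 markers reported for HEK293 were above 20 TPM in every library (lowest values 22.1 and 307), PAX2 was between 1.10 and 1.91 TPM, and NEFM and SALL4 had means under 1 TPM. INA, a neuronal filament gene of that list, rose from 9.60 and 5.62 to 18.9 and 20.8 TPM (log2 fold change 1.32, limma adjusted p = 0.0496). The call held in 5 of 13 alternatives and was lost under TMM (adjusted p = 0.0509). The log2 fold change of INA was 1.38 without siCNOT4 1 and 1.25 without siCNOT4 2. It was 1.66 without siControl 1 and 0.98 without siControl 2. Of 10 markers of blood, connective, liver, skin and vessel cells, COL1A1 alone reached 1 TPM, at 1.39 and 0.906 in siControl and 5.09 and 6.60 in siCNOT4 (log2 fold change 1.67, limma adjusted p = 0.0248), and the 10 summed to 1.60 and 1.24 TPM against 5.63 and 7.69. AFP was at 0 in all libraries. The part of other cells in the results was not tested.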

How the data were processed

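RNA extracted with TRIzol was made into stranded poly(A) libraries, per the labels' protocols. FastQC 0.11.2, STAR 2.5.3a, featureCounts and build hg19 are named in the submitters' processing notes. The strand setting and the annotation are not given in the sources used here. The deposited TPM values sum to 1000000 per library. Whole reads within 0.001 were recovered from the steps of low TPM for 99.99% of features above 0, with gene lengths whole within 0.005 base. Groups are siControl (n = 2) and siCNOT4 (n = 2). The test was limma 3.58.1 (R 4.3.3) with an intensity trend on log2(TPM + 1) over 14208 features of mean TPM at least 1, with Benjamini-Hochberg adjustment over all and a threshold of 0.05. Alternatives were another pseudocount (0.1), no filter, a mean of at least 5 TPM, TMM, quantile and median scaling, no trend, leaving out each library, a replicate block and, chosen after seeing the data, limma's voom on recovered reads. The members and lists were chosen with earlier results of these data known. Genes named in each list are those called with the largest change, at most 4 per direction, and the 2 with the highest mean TPM. No protein sequence was used here.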

Additional observations from a re-analysis of the deposited data

How the results depend on the processing

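Only 2 libraries per group, and the low values of long transcripts in siControl 2, limit these results. The count of genes called by limma, 1792, was 558 with a pseudocount of 0.1, 908 with no filter on low values, 147 with a mean TPM of at least 5, 543 with centring on the library median, 756 with no trend and 3655 with a replicate block, and ran from 450 to 11311 when 1 library was left out. The members called, 1 of 9, were 0 with a pseudocount of 0.1, with no filter, at a mean TPM of at least 5, under TMM, under centring, with no trend and with voom (2 of 9 had an unadjusted p under 0.05 in the fit as reported, 1 under TMM), and 0 to 9 when 1 library was left out. The list genes called, 14, were 9, 7 and 5 with a pseudocount of 0.1, no filter and a mean of at least 5, 28 with quantile normalization, 7 with centring, 7 with no trend and 29 with the replicate block, and 5 to 107 when 1 library was left out. The log2 fold change of TSC22D3 was -2.61 under TMM, -2.63 under centring and -2.36 with voom. The sign turned for TSC22D1 (-0.42 under TMM, -0.49 under quantile normalization, -0.47 under centring, -0.18 with voom), TSC22D4 (-0.22, -0.29 and -0.27 under TMM, quantile and centring), FKBP5 (-0.025, -0.048 and -0.064 likewise) and KLF9 (-0.28, -0.33 and -0.32 likewise, -0.025 with voom). When 1 library was left out, TSC22D1 ran from -0.11 to 0.30, KLF9 from -0.34 to 0.82 and NR3C1 from -0.014 to 1.14. The cause of these moves was not tested. Nothing in the labels says whether libraries with the same number were made together. Their deviations correlated at 0.171 over 14208 features, and with only 2 pairs this cannot decide it.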
